A study of Mus musculus with 6 samples.

Results

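The 44 genes described here are 44 of the 55421 genes in a table of read counts from cultured mouse macrophages, chosen by name as genes of the cell division cycle. They comprise 15 genes of DNA replication (S phase), 5 genes that control entry into S phase, 22 genes of mitosis and 2 inhibitors of cyclin-dependent kinases. All 44 matched 1 Ensembl ID each, and all 44 were among the 13588 genes that passed the filter on low counts. The cells were primary bone marrow-derived macrophages, which grow out of marrow progenitors in culture. Cells with the genotype Tmem175flox/flox Lyz2-Cre+/- (called KO, and also labelled Tmem175-/-) gave 3 libraries, and WT cells gave 3 libraries. TMEM175 conducts potassium ions and protons across the lysosomal membrane, and Lyz2-Cre expresses Cre recombinase from the lysozyme gene of myeloid cells, so floxed alleles are lost as the cells mature. No library had Cre or floxed alleles alone, so loss of Tmem175 cannot be told apart from effects of Cre or its insertion. The labels used here give neither strain, age nor growth medium. Each library was made from 1 culture well, and the wells are not tied to separate animals, so the p-values below take the spread among wells as their error, and part of that spread may be technical.

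Macrophages in marrow culture divide in response to the growth factor CSF1 and slow as they mature, and cells of one dish are not in step. A cycling cell loads the MCM helicase onto replication origins in G1, copies its DNA in S phase and segregates it in mitosis. E2F factors switch on the S phase genes once cyclin-dependent kinases have inactivated the RB protein. The mitotic genes come on later, under a complex of B-MYB, FOXM1 and the MuvB core. In bulk RNA the levels of these genes depend both on how many cells divide and on how much RNA each dividing cell holds, and these cannot be told apart here.

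Total counts ranged from 25979430 to 31542741 in KO and from 24179548 to 25916709 in WT libraries. The counts of the 44 genes ran from 88 to 5927 per library. Levels are given as CPM, which are counts scaled to the library size and to TMM factors. Tmem175 stood at 14.3, 13.2 and 12.1 CPM in KO libraries, against 32.8, 33.4 and 33.2 CPM in WT libraries (log2 fold change -1.33, SE 0.07, adjusted p = 6.01e-05 in edgeR's quasi-likelihood test over all genes). All 14 macrophage markers were expressed. Lyz2, the gene that carries Cre, was the only one of them called, at 24326 ± 1578 CPM in KO and 45178 ± 4163 CPM in WT libraries (SD, n = 3 each; log2 fold change -0.89, adjusted p = 0.0041, edgeR), and it made up most of their summed level. Among the others was Csf1r, the CSF1 receptor, averaging 4225 ± 401 CPM in KO and 4064 ± 464 CPM in WT libraries (SD, n = 3 each).

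Cell cycle genes were expressed in every library, and replication genes at higher levels than mitosis genes. To compare genes with each other, CPM were divided by the length of the merged exons in kilobases. Over the 13579 tested genes with a length, the median level was 4.18 CPM per kilobase. Of the 15 S phase genes, 10 lay above that median, whereas 6 of the 22 mitosis genes did. The ranges overlapped, from 0.867 to 72.3 in the S phase group (median 5.82) and from 0.362 to 7.33 in the mitosis group (median 2.98). Pcna, the sliding clamp of DNA polymerases (chr2:132249162-132253314), reached 72.3 CPM per kilobase, at percentile 95.5 of the tested genes. PCNA also serves DNA repair, and its transcript is not confined to cycling cells.

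Among the helicase subunits, Mcm3 and Mcm6 stood at 13.9 and 13.0 CPM per kilobase and Mcm2 at 3.83. The factors that load or fire the helicase were spread widely, from Cdt1 at 9.45 to Cdc45 at 1.45 and Cdc6 at 0.944 CPM per kilobase. For the nucleotide supply, Rrm1 and Rrm2, the subunits of ribonucleotide reductase, stood at 4.66 and 5.82, and Tyms, thymidylate synthase, at 0.867 CPM per kilobase. Such orders depend on the annotated exons, which merge to 11012 bases for Rrm1, 2771 for Rrm2 and 6089 for Tyms. Before the division by length, Rrm1 averaged 51.3 CPM and Rrm2 16.1 CPM. In the mitosis group the levels ran from 0.362 CPM per kilobase for Cenpf, a kinetochore protein, to 7.33 for Mki67, which encodes the proliferation antigen Ki-67 (chr7:135689784-135716361). The inhibitors lay above all 22 mitosis genes, with Cdkn1a (p21) at 25.0 and Cdkn1b (p27) at 14.2 CPM per kilobase. By comparison Csf1r stood at 718 and Adgre1, the gene of the F4/80 antigen, at 811 CPM per kilobase. Of the myeloid progenitor markers, Kit, the receptor of early progenitors, stood at 0.719. Elane and Mpo, which are granule genes, stood at 7.06 and 3.13 CPM per kilobase, within the range of the mitosis genes.

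**Figure D1:**
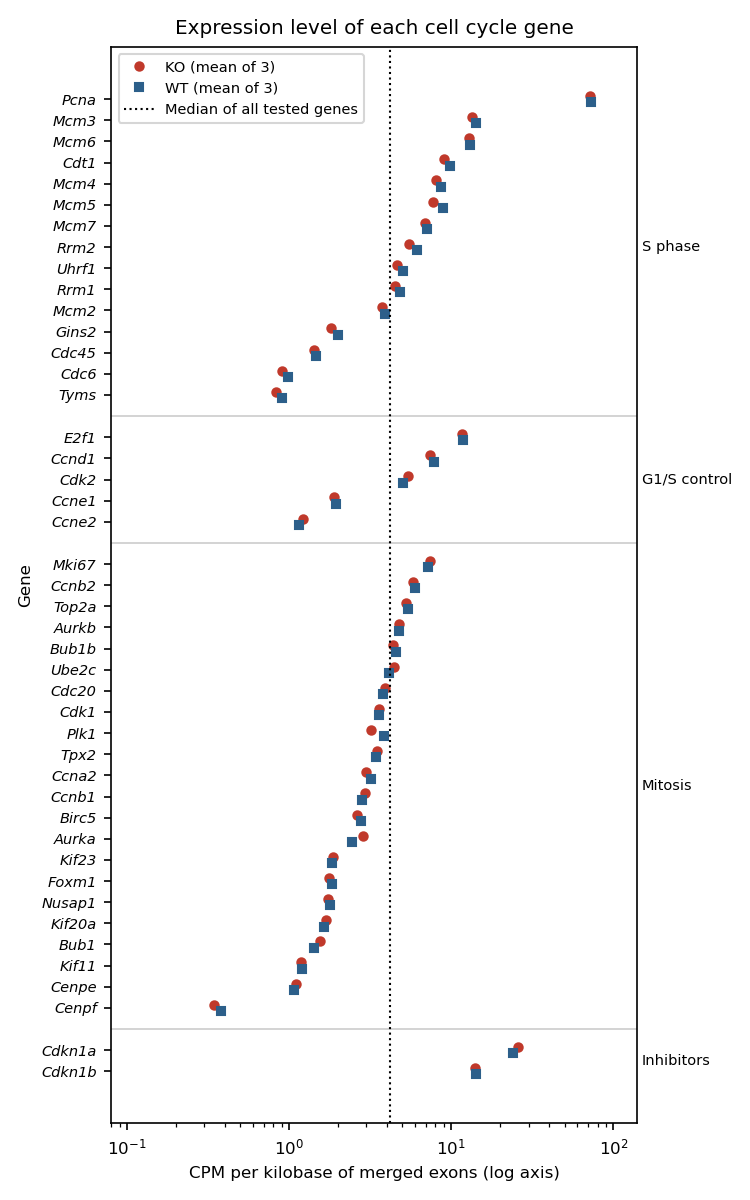
Mean level of each of the 44 genes in CPM per kilobase of merged exons (log axis), with KO as circles and WT as squares (means of 3 libraries), grouped by role and sorted by level. Pcna stands alone at 72.3, the 2 inhibitors lie above the mitosis genes, and 16 of the 22 mitosis genes fall below the dotted median of 4.18 over tested genes.

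The S phase and mitosis genes were also compared in the sequence before their start sites. RefSeq promoter windows on GRCm38.p6, from 250 bases before to 50 after the start, were found for 35 of the 44 genes. They were searched on both strands for 4 words of the E2F motif (TTTCCCGC, TTTCGCGC, TTTGCCGC and TTTGGCGC), for the CHR element TTTGAA, a site of the MuvB core, and for CCAAT, the site of NF-Y. The E2F words can overlap each other. An E2F word occurred in 6 of 13 S phase windows (46.2%) and 1 of 17 mitosis windows (5.88%), against 4.22% of the windows of 9941 tested genes. CHR occurred in 2 of 13 S phase windows (15.4%) and 12 of 17 mitosis windows (70.6%), against 12.2% of all windows. CCAAT was common in both groups, in 10 of 13 S phase windows (76.9%) and 15 of 17 mitosis windows (88.2%), against 39.0% of all windows. CHR and CCAAT were found together in 2 of 13 S phase windows (15.4%) and 12 of 17 mitosis windows (70.6%), against 5.21% of all windows. These shares are a description with no test, and a match gives the letters of the window, not binding in these cells.

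The windows of 5 genes show the E2F words of S phase genes and the CHR of mitosis genes, printed from 170 bases before to 30 bases after the start. Capitals mark E2F words in the helicase genes Mcm5 (chr8:75109339-75109538, plus strand) and Mcm6 (chr1:128359676-128359875, minus strand). In both, E2F words of opposite strands overlap. The windows searched also held CCAAT, 3 times in Mcm5 and 2 times in Mcm6, which is left in lower case here.
Mcm5: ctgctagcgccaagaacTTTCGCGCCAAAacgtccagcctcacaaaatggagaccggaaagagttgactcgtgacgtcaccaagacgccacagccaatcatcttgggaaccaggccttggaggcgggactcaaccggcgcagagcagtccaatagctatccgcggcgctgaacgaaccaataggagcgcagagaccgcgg
Mcm6: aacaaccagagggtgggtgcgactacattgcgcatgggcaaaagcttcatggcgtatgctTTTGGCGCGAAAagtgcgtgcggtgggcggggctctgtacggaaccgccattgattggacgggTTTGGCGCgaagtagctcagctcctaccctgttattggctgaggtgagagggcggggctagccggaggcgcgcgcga
Capitals mark CHR and CCAAT, on either strand, in cyclin B2 (Ccnb2, chr9:70421525-70421724), Ki-67 (Mki67, chr7:135716350-135716549) and DNA topoisomerase II alpha (Top2a, chr11:99024160-99024359), all on the minus strand. Ccnb2 and Top2a hold a CHR near the start, at bases 5 and -23 from the start (negative before it), with several CCAAT words before it.
Ccnb2: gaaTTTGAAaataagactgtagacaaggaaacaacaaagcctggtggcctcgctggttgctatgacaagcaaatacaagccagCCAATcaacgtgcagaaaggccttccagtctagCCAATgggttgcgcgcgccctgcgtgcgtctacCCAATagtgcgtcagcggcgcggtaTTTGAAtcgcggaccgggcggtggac
Mki67: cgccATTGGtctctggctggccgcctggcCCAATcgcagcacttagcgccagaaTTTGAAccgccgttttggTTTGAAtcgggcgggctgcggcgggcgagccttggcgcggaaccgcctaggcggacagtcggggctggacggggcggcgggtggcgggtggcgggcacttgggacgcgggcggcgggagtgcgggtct
Top2a: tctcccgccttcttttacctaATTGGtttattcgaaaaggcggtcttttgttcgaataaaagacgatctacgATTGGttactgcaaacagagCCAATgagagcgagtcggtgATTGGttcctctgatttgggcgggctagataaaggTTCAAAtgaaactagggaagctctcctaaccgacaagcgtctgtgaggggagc

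Within each genotype the libraries differed in their replication genes, and the ranges of the genotypes overlapped for every one of the 15. Pcna stood at 188, 159 and 168 CPM in KO libraries, against 181, 189 and 157 CPM in WT libraries. KO replicate 2 and WT replicate 3 were the low libraries for this gene. Mcm5, a helicase subunit, stood at 33.3, 27.5 and 32.3 CPM in KO libraries, against 32.9, 42.9 and 30.5 CPM in WT libraries. WT replicate 2 stood above the other 5 libraries. Rrm2, which sets the supply of deoxynucleotides in S phase, stood at 15.4, 14.0 and 16.3 CPM in KO libraries, against 16.2, 19.0 and 15.7 CPM in WT libraries. Uhrf1, which guides DNA methylation at the replication fork, stood at 20.3, 17.9 and 20.8 CPM in KO libraries, against 21.9, 25.5 and 16.7 CPM in WT libraries.

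The remaining replication genes followed the same libraries. WT replicate 2 was the highest library for 12 of the 15 genes and lay above the 6-library mean (on the log2 scale) for all 15. KO replicate 2 was the lowest library for 9 genes and WT replicate 3 for the other 6, and each lay above the mean for 1 gene. The ratio of the highest to the lowest library ran from 1.21 for Pcna to 1.68 for Tyms. These differences between libraries were small but larger than counting error for each of the 15: the coefficient of variation over the 6 libraries had a median of 10.2%, against 3.57% from counting alone.

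Mitosis genes also differed between libraries of 1 genotype, but in another order. Mki67 stood at 56.4, 79.0 and 88.9 CPM in KO libraries, against 68.2, 88.1 and 61.8 CPM in WT libraries. KO replicate 1 and WT replicate 3 were its low libraries, and KO replicate 3 and WT replicate 2 its high ones. Top2a, which untangles sister chromosomes, stood at 49.2, 43.0 and 50.4 CPM in KO libraries, against 51.6, 55.6 and 38.1 CPM in WT libraries. Ccnb2 stood at 7.96, 9.69 and 8.98 CPM in KO libraries, against 9.85, 10.5 and 7.12 CPM in WT libraries. For Top2a and Ccnb2 alike, the KO libraries lay within the span of the WT libraries.

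Foxm1, a transcription factor that drives mitotic genes, varied most among the 44: it stood at 10.1, 9.69 and 10.9 CPM in KO libraries, against 11.5, 13.6 and 6.84 CPM in WT libraries. The ratio of its highest to its lowest library was 1.98, and both of those libraries were WT. Cdk1, the kinase that starts mitosis, stood at 17.1, 16.3 and 19.6 CPM in KO libraries, against 17.8, 19.9 and 15.3 CPM in WT libraries. WT replicate 3 was the lowest library for 17 of the 22 mitosis genes and lay above the 6-library mean for 0 of them. WT replicate 2 was the highest for 12 and KO replicate 3 for 8. Tpx2, a spindle assembly factor, and Aurkb, a kinase of the chromosomal passenger complex, were nearly level, with highest-to-lowest ratios of 1.10 and 1.14. For these genes and E2f1 the spread over the 6 libraries was no larger than counting error, in contrast to the other 41 of the 44.

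**Figure D2:**
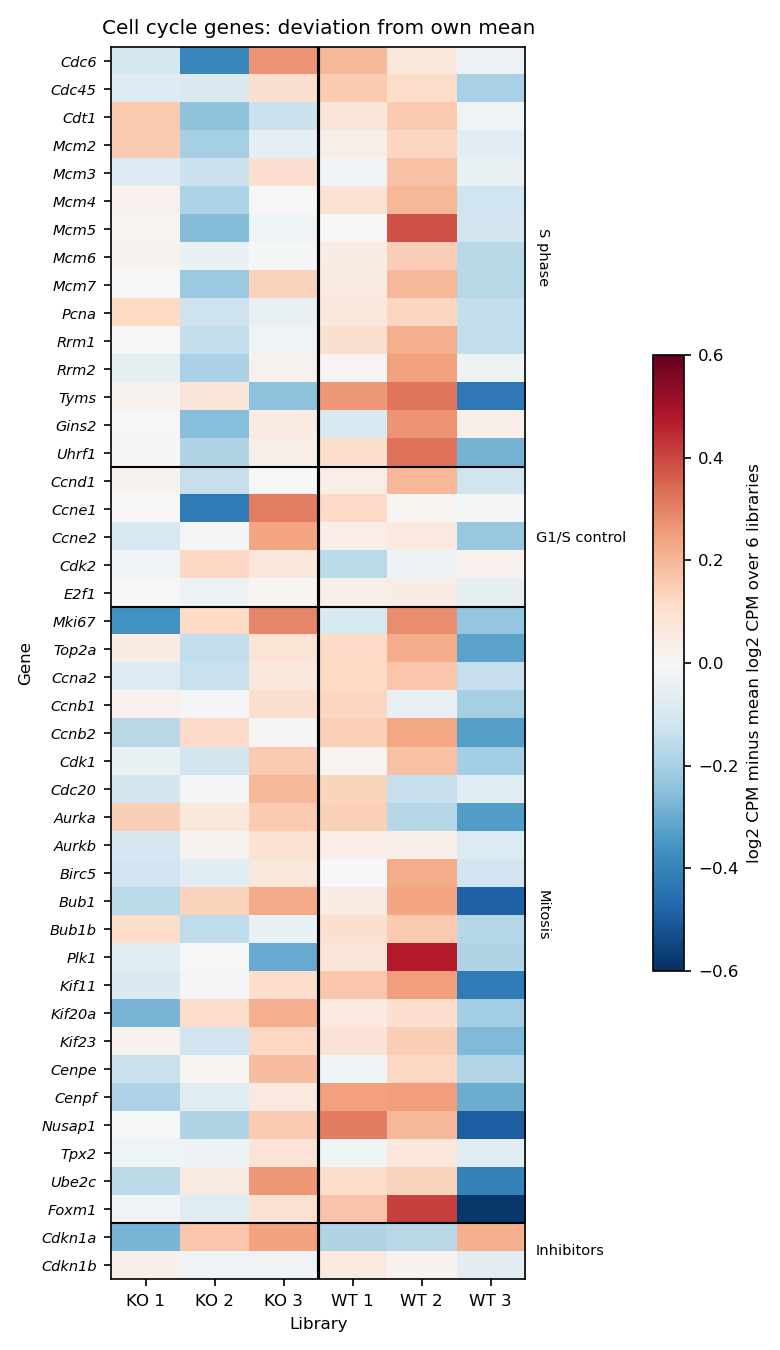
Deviation of each gene from its own mean over the 6 libraries, in log2 CPM (red above, blue below), with KO libraries left of the line and WT libraries right of it. WT 2 is red across all 15 S phase genes, WT 3 is blue across all 22 mitosis genes, and KO 2 lies above the mean for 1 of 15 S phase genes and 8 of 22 mitosis genes.

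Scores per library, the mean log2 CPM over the genes of a group, put the S phase and mitosis genes side by side. The S phase score was 4.52, 4.33 and 4.52 in KO libraries, against 4.58, 4.71 and 4.38 in WT libraries. The mitosis score was 3.47, 3.52 and 3.65 in KO libraries, against 3.64, 3.70 and 3.28 in WT libraries. WT replicate 2 was highest on both scores. KO replicate 2 was lowest for S phase, while WT replicate 3 was lowest for mitosis and next to lowest for S phase.

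The S phase score averaged 4.46 ± 0.11 in KO and 4.55 ± 0.17 in WT libraries (SD, n = 3 each), a difference of -0.10. The mitosis score averaged 3.55 ± 0.10 in KO and 3.54 ± 0.23 in WT libraries (SD, n = 3 each), a difference of 0.01. S phase minus mitosis was 1.05, 0.81 and 0.86 in KO libraries, against 0.94, 1.01 and 1.09 in WT libraries, and averaged 0.91 ± 0.13 in KO and 1.01 ± 0.08 in WT libraries (SD, n = 3 each). KO replicates 2 and 3 lay below the 3 WT libraries on this difference and KO replicate 1 lay among them. Each of these differences between genotypes was smaller than the larger of the SDs within a genotype, and no test was made of scores over chosen genes.

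**Figure D3:**
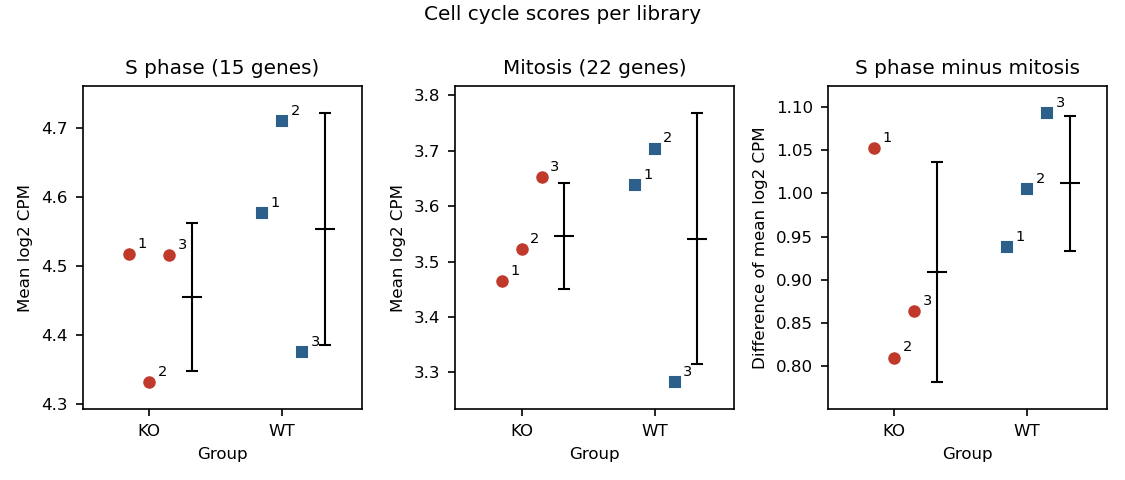
Scores per library in KO and WT cells for S phase genes, mitosis genes and their difference, in mean log2 CPM. Numbers beside points are the replicate numbers of the labels, and bars give the mean ± SD of 3 libraries. The genotypes overlap in all 3 panels, and WT spans 3.28 to 3.70 on the mitosis score.

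Other genes of the same pathways, none of them among the 44, set the libraries in the same order. The summed CPM of 48 further replication genes (origin recognition, polymerases, clamp loaders, chromatin assembly) was 731.1, 697 and 730.9 in KO libraries, against 744, 778 and 697 in WT libraries. From highest to lowest, the 6 libraries ran as they did for the S phase genes, but part of this order rests on near ties. KO replicates 1 and 3 were nearly level, as were WT replicate 3 (697.4) and KO replicate 2 (696.7). The summed CPM of 54 further mitosis genes (kinetochore, condensin, spindle and cytokinesis) was 673.9, 674.2 and 704 in KO libraries, against 695, 734 and 621 in WT libraries. This again gave the order of the mitosis genes above, though KO replicates 1 and 2 were nearly level. Among the marker lists of other marrow cells, that of 12 myeloid progenitor genes, all of them detected, also ran in the order of the S phase genes. Its summed level was 46.1, 39.6 and 41.6 CPM in KO libraries, against 52.5, 60.5 and 40.4 CPM in WT libraries. Here too part of the order rests on small gaps, between KO replicate 3, WT replicate 3 and KO replicate 2. Mpo, the myeloperoxidase of granulocyte precursors and the highest gene of that list, stood at 9.11, 7.49 and 7.23 CPM in KO libraries, against 13.6, 16.9 and 9.90 CPM in WT libraries. The genotypes did not overlap for Mpo, but it was not called (adjusted p = 0.446, edgeR). Kit lay the other way, also without overlap, at 6.38, 7.36 and 7.04 CPM in KO libraries, against 5.72, 6.29 and 5.646 CPM in WT libraries (adjusted p = 0.932, edgeR). Of the 12 genes, 1 did not overlap with KO higher and 2 with KO lower, against 5.73% and 5.06% of all tested genes. At an unadjusted p under 0.05 (edgeR), 1 was higher and 3 were lower in KO, against 2.4% and 3.04% of all tested genes. The list of erythroid and megakaryocyte markers gave the same order but for WT replicates 1 and 2, which changed places. The lists of mast cells, lymphocytes, stroma and macrophages gave other orders. These orders were compared after the values were seen, and the part of progenitor or megakaryocyte cells in the S phase levels was not tested.

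The inhibitor Cdkn1a (chr17:29090976-29100727), a target of p53 that stops cyclin-dependent kinases, separated the libraries across genotype. It stood at 72.5, 98.9 and 104 CPM in KO libraries, against 77.5, 78.5 and 102 CPM in WT libraries. KO replicates 2 and 3 and WT replicate 3 lay near 100 CPM, and KO replicate 1 and WT replicates 1 and 2 below 80 CPM. The 3 libraries with high Cdkn1a were those with the 3 lowest S phase sums, a match seen after the values were known. On the S phase score, KO replicates 1 and 3 were nearly level, at 4.517 and 4.516. Csf1r was also highest in these 3 libraries, at 4518 and 4388 CPM in KO replicates 2 and 3 and 4600 CPM in WT replicate 3. The mitosis genes did not divide the libraries in this way: KO replicate 3, highest for Cdkn1a, was next to highest on the mitosis sum. Nor did the summed CPM of 22 further inhibitors and p53 targets, with KO replicate 1 next to highest and KO replicate 2 lowest. Over all tested genes, KO replicate 1 stood apart from KO replicates 2 and 3 (chi-square over degrees of freedom 19.9 and 12.9, against 5.42 between those). WT replicate 3 stood apart from WT replicates 1 and 2 (11.9 and 10.4, against 3.87). A link between Cdkn1a and the S phase genes was not tested. Cdkn1b stood at 65.8, 63.4 and 63.6 CPM in KO libraries, against 67.1, 65.5 and 61.8 CPM in WT libraries, a ratio of highest to lowest of 1.09.

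**Figure D4:**
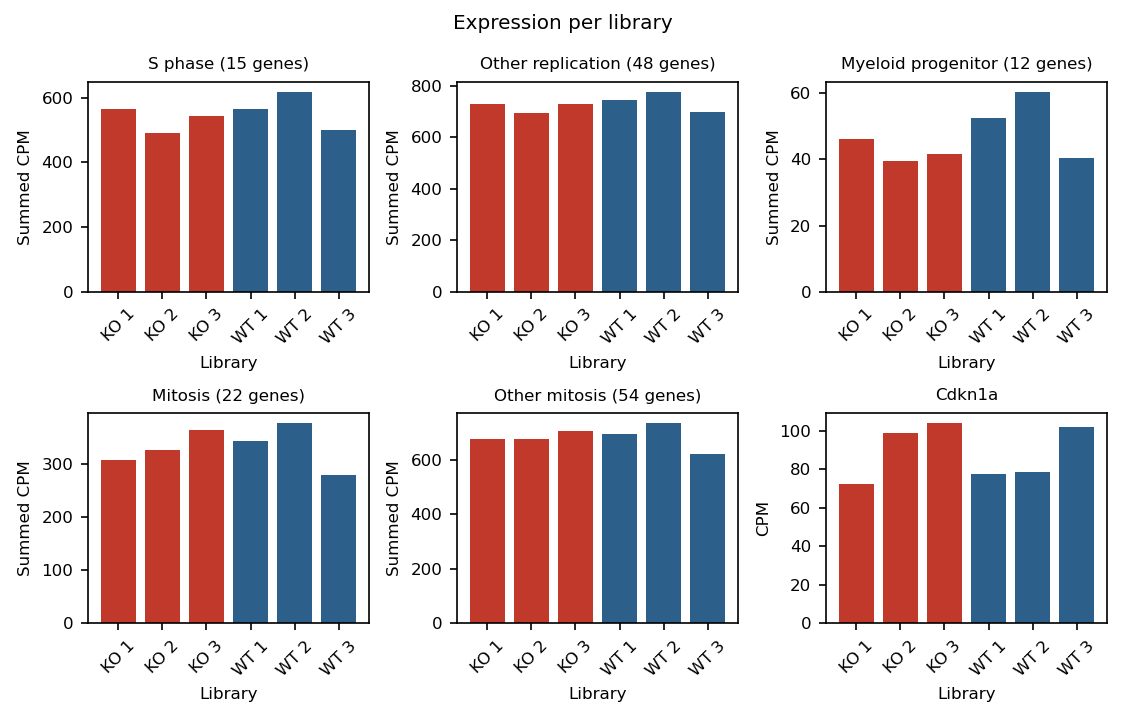
Summed CPM per library of S phase, other replication, myeloid progenitor, mitosis and other mitosis genes, and CPM of Cdkn1a, with KO bars left of WT bars. WT 2 is the highest bar in each panel but that of Cdkn1a, where KO 3 at 104 CPM is highest.

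Among the genes of G1 and S phase entry, E2f1, which activates S phase genes, had the smallest spread of the 44 over the 6 libraries (coefficient of variation 2.76%). It stood at 37.1, 36.3 and 37.5 CPM in KO libraries, against 38.1, 38.2 and 35.6 CPM in WT libraries. Ccnd1, the cyclin D1 induced by growth factors, stood at 36.0, 32.3 and 35.5 CPM in KO libraries, against 36.5, 40.8 and 32.7 CPM in WT libraries. Cdk2, the kinase partner of cyclins E and A, stood at 32.04, 35.5 and 34.2 CPM in KO libraries, against 29.1, 31.97 and 33.2 CPM in WT libraries. The cyclins E were low: Ccne1 averaged 5.01 ± 1.24 CPM in KO and 5.19 ± 0.244 CPM in WT libraries, and Ccne2 averaged 4.24 ± 0.521 CPM in KO and 3.996 ± 0.432 CPM in WT libraries (SD, n = 3 each). All 5 overlapped between the genotypes.

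No cell cycle gene passed the test of KO against WT. In edgeR's quasi-likelihood test, 0 of the 44 had an adjusted p under 0.05, where 0.103% of the 13588 tested genes did (0.0147% higher and 0.0883% lower in KO). At an unadjusted p under 0.05 the count was also 0 of 44, against 5.44% of tested genes (2.4% higher and 3.04% lower in KO), and the DESeq2 test called 0. The lowest adjusted p was 0.959, for Aurka. The genotypes did not overlap for 0 of the 44 genes, against 10.8% of tested genes (5.73% with KO higher and 5.06% with KO lower).

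The 95% interval of the log2 fold change lay within a 1.5-fold change in either direction for 43 of the 44 genes. The exception was Plk1, a kinase of mitotic entry and exit, at 7.33, 7.66 and 6.20 CPM in KO libraries, against 8.06, 10.6 and 6.76 CPM in WT libraries. Its log2 fold change was -0.26, with an interval from -0.63 to 0.11. At the other end stood Aurka, a kinase of the spindle poles, at 7.33, 6.92 and 7.38 CPM in KO libraries, against 7.31, 5.88 and 5.25 CPM in WT libraries. Its log2 fold change was 0.23, with an interval from -0.07 to 0.54. For Mki67 the log2 fold change was 0.04 (interval -0.33 to 0.41) and for Pcna -0.03 (interval -0.21 to 0.15).

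The groups differed in how their estimates lay around 0. All 15 S phase genes had a negative log2 fold change, from -0.19 for Mcm5 to -0.02 for Mcm6, with a median of -0.11. With library totals as the scaling, 13 of the 15 were negative, but that scaling moved the median of all tested genes to 0.042. The 2 positive genes, Mcm6 at 0.020 and Pcna at 0.0076, lay below that median. The 22 mitosis genes had 12 positive and 10 negative values with a median of 0.0038, against a median of -0.00090 over all tested genes. The S phase genes vary together across libraries, so their shared sign is not 15 separate observations. Without WT replicate 2, 10 of 15 S phase genes were negative with a median of -0.01, and without KO replicate 2, 11 of 15 with a median of -0.05. The mitosis genes turned with single libraries: 20 of 22 were negative without WT replicate 3 (median -0.10) and 18 of 22 positive without WT replicate 2 (median 0.07).

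**Figure D5:**
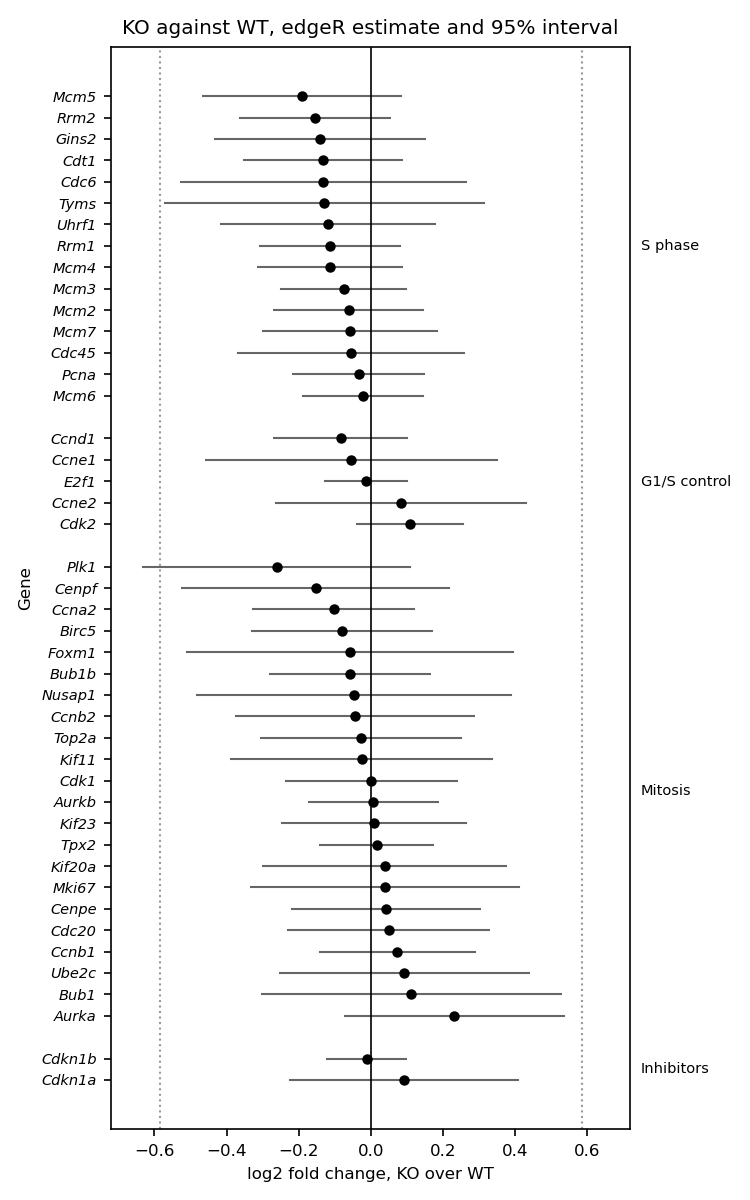
Log2 fold change of KO over WT for each gene (points) with its 95% interval (lines), from edgeR's fit over all genes, grouped by role. Dotted lines mark a 1.5-fold change, which the interval of Plk1 alone crosses, and all 15 S phase points lie left of 0.

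The further genes of the pathways likewise held no called gene. Of the 48 other replication genes 0 passed, with 17 positive and 31 negative values and a median of -0.05. At an unadjusted p under 0.05 there were 3 of the 48, a share near the 5.44% of all tested genes, and all 3 had lower means in KO. By overlap, 4 of the 48 lay above the WT range in KO and 1 below it, against 5.73% and 5.06% of all tested genes. Timeless, which protects replication forks, averaged 9.56 ± 1.01 CPM in KO and 11.7 ± 0.805 CPM in WT libraries (SD, n = 3 each). Pold3, a polymerase delta subunit, averaged 38.8 ± 1.53 CPM in KO and 42.9 ± 2.79 CPM in WT libraries, and Gmnn, the inhibitor of Cdt1, 16.2 ± 1.05 CPM in KO and 18.1 ± 0.706 CPM in WT libraries (SD, n = 3 each). Their adjusted p-values were 0.863 for Timeless and 0.908 for Pold3 and Gmnn (edgeR). Of the 54 other mitosis genes 0 passed and 0 had an unadjusted p under 0.05, with 26 positive and 28 negative values and a median of -0.00063. Of 24 other genes of G1 control 0 passed, with a median of -0.01. The smallest p there was that of Ccnd2, a D cyclin, at 3.33, 4.83 and 3.84 CPM in KO libraries, against 5.01, 5.71 and 5.646 CPM in WT libraries. The genotypes did not overlap, but Ccnd2 was not called (adjusted p = 0.881, edgeR; log2 fold change -0.45 with an SE of 0.16). Of the 24 genes, 1 did not overlap with KO higher and 1 with KO lower, against 5.73% and 5.06% of all tested genes. At an unadjusted p under 0.05 (edgeR) there was 1 of the 24, a share near the 5.44% of all tested genes. Of 22 further inhibitors and p53 targets 19 could be tested, and 0 passed, with a median of 0.04.

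Counting sets a limit on some of these values, since the strand setting of the counting is not given. Exons of 13 of the 44 genes overlap exons of a gene on the opposite strand. The overlap is longest for Gins2, a subunit of the replicative helicase complex, which shares 2758 of its 4097 exon bases with Gse1, and for Kif20a, a mitotic kinesin, which shares 1271 with Cdc23. Processed copies also exist: Ccnb2-ps held 197 counts over the 6 libraries beside 1448 for Ccnb2, and Pcna-ps2 held 104 beside 27987 for Pcna.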

How the data were processed

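RNA sequencing libraries from 3 KO and 3 WT wells were compared. The deposited table holds raw read counts per Ensembl gene, which the authors made with HISAT2, featureCounts and the GRCm38 build, as listed in the submitters' processing notes; their versions, annotation and strand setting are not given in the sources read. Symbols, positions and merged exon lengths came from GENCODE M21 (55240 of 55421 IDs matched), promoters from RefSeq on GRCm38.p6.

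Counts were filtered with filterByExpr, TMM-scaled and tested with edgeR 4.0.16 (R 4.3.3; estimateDisp, glmQLFit, glmQLFTest, defaults, genotype as the only term, two-sided, Benjamini-Hochberg over 13588 genes, threshold 0.05). Standard errors were derived from the F statistic and 95% intervals from the t distribution of the fit. Scores are mean log2 CPM with a prior count of 0.5. The fit was tested on simulated data, and the outcome is not reported here.

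The members, lists and tests were chosen with earlier results of these data known. All 44 members may be named; from pathway lists, up to 3 genes with the smallest p; from marker lists, up to 3 with the highest mean CPM. One list entry (Fam64a) had no match. Marker lists of mast cells, erythroid cells, lymphocytes and stroma were also summed. Alternatives were other scalings and filters, DESeq2 1.42.0, the replicate number as a block, other score settings and leaving out each library. Every pair of same-genotype libraries differed by more than sampling noise (chi-square over degrees of freedom 3.87 to 19.9).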

Additional observations from a re-analysis of the deposited data

How the results depend on the processing

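None of the 44 genes was called under any alternative run, where their adjusted p-values lay between 0.377 and 1.00, and the score differences moved by less than the SD pooled over both genotypes under each alternative. Estimates near 0 changed sign for 0 to 6 of the 44 genes under other scalings, filters, DESeq2 and the block, and for 2 to 15 genes when 1 library was left out. Over the whole table, 2 genes were called higher and 12 lower in KO; these counts became 10 and 30 with the DESeq2 test, 39 and 112 with no filter on low counts, and 0 and 5 where a mean of 5 CPM or more was asked, which kept 42 of the 44 genes. Leaving out each library gave 0 to 2 higher and 4 to 10 lower, with 2 and 10 without KO replicate 1, 0 and 5 without KO replicate 2, 0 and 4 without KO replicate 3, 0 and 7 without WT replicate 1, 0 and 6 without WT replicate 2, and 2 and 7 without WT replicate 3. The cause of these shifts was not tested. With the replicate block the counts were 3 and 14, and 0 of the 44 genes were called. Libraries with equal numbers deviated from their group means with correlations of 0.05, -0.11 and 0.04, so the numbers were not taken to pair them. Left-out ranges of the KO minus WT difference were -0.19 to -0.02 for the S phase score, -0.12 to 0.09 for mitosis and -0.18 to -0.05 for S phase minus mitosis. Depth limits the genes of lowest level most: counting error was 8.78% for Cdc6 and 9.59% for Ccne2.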

Other observations

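Markers of the other cell types that marrow cultures can hold were low beside macrophage genes. The summed level of 9 mast cell and basophil genes was 19.1, 11.9 and 11.3 CPM in KO libraries, against 22.5, 27.3 and 19.6 CPM in WT libraries, with Cma1 at 0 in all libraries. These sums did not overlap between the genotypes, but only narrowly, between KO replicate 1 at 19.1 and WT replicate 3 at 19.6 CPM. Of the 6 genes of that list in the fit 0 were called. At an unadjusted p under 0.05, 5 were lower in KO, against 3.04% of all tested genes (edgeR). By overlap, 0 of the 6 lay above the WT range in KO and 4 below it, against 5.73% and 5.06% of all tested genes. The summed level of 11 erythroid and megakaryocyte genes was 149.7, 99.8 and 131 CPM in KO libraries, against 207, 188 and 125 CPM in WT libraries, nearly all from the platelet genes Ppbp, Pf4 and Itga2b, with Hbb-bs and Hbb-bt at 0. Of its 5 genes in the fit 0 were called. At an unadjusted p under 0.05, 4 of these 5 were lower in KO, against 3.04% of all tested genes (edgeR). The summed level of 11 lymphocyte genes was 106, 81.3 and 113 CPM in KO libraries, against 153, 169 and 110.1 CPM in WT libraries, mostly Cd4. Cd4 averaged 116 CPM over all libraries, while the next highest genes of the list, Cd79a and Ms4a1, averaged 1.56 and 1.26 CPM. Of the 6 lymphocyte genes in the fit 0 were called. At an unadjusted p under 0.05, 4 of these 6 were lower in KO, against 3.04% of all tested genes (edgeR). The summed level of 10 stromal genes was 41.3, 61.7 and 47.97 CPM in KO libraries, against 87.1, 33.0 and 44.1 CPM in WT libraries, with 0 of the 9 genes in the fit at an unadjusted p under 0.05. WT replicates 1 and 2 stood highest on the sums of the mast cell, erythroid and lymphocyte lists, as they did on the S phase genes.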
